A study of Mus musculus with 288 samples.

Results

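Daily rhythms of liver transcripts were compared between BLKO and Alb-Cre mice that ate ad libitum, using 48 of the 288 bulk RNA-seq libraries of a study of feeding time in mice. All libraries of these groups were taken: 24 from BLKO livers and 24 from Alb-Cre livers, 2 at each of 12 times from 0 to 22 h. BLKO mice carry the genotype Alb-Cre, Bmal fl/fl. Their floxed alleles of Bmal1 (gene symbol Arntl) are recombined by a Cre whose albumin promoter is active in hepatocytes, so other cell types of the liver keep the gene. The comparison mice carry Alb-Cre alone, so the Cre transgene is common to both groups. All were C57BL/6 mice of 3 months, kept in 12 h of light and 12 h of darkness. The question was which daily rhythms of the liver depend on Bmal1 in hepatocytes and which persist without it. Feeding lasted 30 days on each regimen. Hours are given as labelled, since no label says where hour 0 falls in the light cycle. No label names an animal, so the tests measure spread among libraries, which may be technical.

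The hepatocyte clock is a feedback loop. BMAL1, paired with CLOCK or its relative NPAS2, binds E-boxes in DNA and activates the period (Per), cryptochrome (Cry) and Nr1d1 and Nr1d2 (REV-ERB) genes. PER and CRY proteins repress BMAL1 and CLOCK, while REV-ERB proteins repress Arntl and the ROR receptors activate it through a shared element, the RORE. Outputs such as Dbp and Tef carry the rhythm to metabolic genes through D-boxes. Liver rhythms are also known to follow feeding, hormones and body temperature.

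The BLKO and Alb-Cre counts were deposited in separate tables, and the sample titles give each group a number of its own whose meaning is not stated. A difference in mean level between genotypes therefore cannot be told apart from a difference between tables, so means were left out and each gene was centred within its group. Ranges and medians of level given below describe each group alone and are not read as effects of genotype. A rhythm below is the 24 h cosine of log2 CPM (CPM, counts scaled to library size by TMM). Its size is the fitted peak-to-trough in log2 units, where 1 unit is a doubling, and its timing is the fitted peak time. Errors are standard errors from 24 libraries per group, with the residual spread of each gene pooled over both groups. The error of a size is therefore the same in both groups. Libraries that stand apart in 1 group can widen it in the other. Rhythms and their changes were tested with the quasi-likelihood F test of edgeR, adjusted over 9009 genes by the Benjamini-Hochberg method, and a call is an adjusted p under 0.05. A changed rhythm differed in size, timing or both. Library totals ran between 1214842 and 5462461 counts in BLKO livers and between 2124587 and 5317631 in Alb-Cre livers. All 12 hepatocyte markers were measured, with a summed level of 51800 to 86500 CPM in BLKO and 89100 to 120000 CPM in Alb-Cre livers.

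Of the 24 BLKO libraries, 3 stood apart from the rest: 0B, 4B and 22A, named by hour and letter. Their median correlations with the rest of their group were 0.905, 0.939 and 0.959, against at least 0.964 in the other BLKO libraries and 0.963 in the Alb-Cre ones. Apoa4, which encodes an apolipoprotein, stood at 7540, 3900 and 1660 CPM in these libraries, against 162 to 312 CPM in the other 21 BLKO libraries. Igfbp1, an insulin-repressed gene, stood at 2140, 1870 and 112 CPM, against 27.0 to 380 CPM in the other 21. The sterol synthesis gene Sqle stood at 4.49, 5.29 and 17.6 CPM, against 45.4 to 174 CPM. Hsd3b5, a male-biased steroid dehydrogenase gene, stood at 7.48, 7.48 and 79.7 CPM, against 268 to 630 CPM. Hepatocyte markers were lowest in 0B, which also had the lowest total, 1214842 counts, and the highest macrophage markers of its group, 842 CPM against a median of 413. Among Alb-Cre libraries, 6B had the highest macrophage markers, 1990 CPM against a median of 381. Because the 3 BLKO libraries lie between 22 and 4 h, they bear on fitted sizes and timing; values without them stand beside results that moved, and the cause of their difference was not tested.

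Arntl (mm10, chromosome 7, 113207465 to 113314126, plus strand), the targeted gene, was measured first. It lay between 7.53 and 15.3 CPM in BLKO livers with a median of 10.7, and between 0 and 24.8 CPM in Alb-Cre livers with a median of 11.1. The Alb-Cre libraries were lowest at 8 to 12 h and highest at 22 h, while the BLKO libraries stayed within a narrower band. The fitted peak-to-trough was 0.42 ± 0.31 log2 units in BLKO and 4.12 ± 0.31 in Alb-Cre livers, where the peak fell at 22.9 ± 0.3 h, and the rhythm changed between the genotypes (adjusted p = 1.1e-06). Counts per gene do not show whether reads come from the floxed part, so the level of Arntl checks neither the deletion nor the labels.

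Promoters of 4 clock genes are shown because they carry the elements through which the loop is wired, and because these genes moved differently in BLKO livers. Each runs 5′ to 3′ on the strand of the gene, with 250 bases before the start and 50 after it, from RefSeq on GRCm38.p6. Capitals mark the E-box CACGTG, the D-box TTATGTAA or the RORE, searched on both strands.
Arntl, RORE, chr7:113207261-113207560, plus strand: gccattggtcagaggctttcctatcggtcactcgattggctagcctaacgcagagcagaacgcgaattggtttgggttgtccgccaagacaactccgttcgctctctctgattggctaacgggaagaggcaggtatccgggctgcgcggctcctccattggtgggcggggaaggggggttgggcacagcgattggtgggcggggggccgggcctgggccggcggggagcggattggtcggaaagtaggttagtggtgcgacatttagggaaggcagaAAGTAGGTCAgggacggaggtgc
Ciart, E-boxes, chr3:95882179-95882478, minus strand: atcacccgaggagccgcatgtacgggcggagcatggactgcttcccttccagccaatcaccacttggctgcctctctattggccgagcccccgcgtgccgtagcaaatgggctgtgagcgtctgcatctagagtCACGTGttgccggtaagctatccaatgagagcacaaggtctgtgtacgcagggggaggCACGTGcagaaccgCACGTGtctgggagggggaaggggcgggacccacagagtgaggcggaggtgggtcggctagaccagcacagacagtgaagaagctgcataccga
Per1, E-box, chr11:69098699-69098998, plus strand: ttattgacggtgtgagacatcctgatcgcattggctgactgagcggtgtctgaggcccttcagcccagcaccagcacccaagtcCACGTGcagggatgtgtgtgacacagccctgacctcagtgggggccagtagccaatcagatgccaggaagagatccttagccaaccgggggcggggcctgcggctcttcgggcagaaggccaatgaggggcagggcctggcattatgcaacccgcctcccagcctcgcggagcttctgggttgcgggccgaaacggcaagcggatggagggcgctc
Per3, D-boxes, chr4:151044616-151044915, minus strand: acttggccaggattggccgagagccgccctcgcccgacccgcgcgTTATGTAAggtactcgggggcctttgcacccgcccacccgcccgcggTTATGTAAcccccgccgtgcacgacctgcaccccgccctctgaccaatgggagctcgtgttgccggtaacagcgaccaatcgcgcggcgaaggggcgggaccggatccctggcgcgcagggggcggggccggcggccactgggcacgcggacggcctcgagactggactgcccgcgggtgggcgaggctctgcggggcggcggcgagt
The Ciart promoter holds 3 E-boxes and the Per3 promoter 2 D-boxes, while those of Arntl and Per1 hold 1 element each. Among the 27025 genes of the RefSeq table, 8.09% hold the E-box in such a window, 1.11% the D-box and 0.259% the RORE.

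The 3 clock lists held 19 tested genes, and most of their rhythms were smaller in BLKO livers. In BLKO livers 4 of the 19 were rhythmic, against 6.85% of all genes tested; in Alb-Cre livers 18 were, against 17.4%. The rhythm changed in 15 of 19, against 5.01% of all genes, and all 15 had a lower peak-to-trough in BLKO livers (3.98% of all genes changed in that direction, 1.02% in the other). Without the 3 libraries the count was again 15, of which 13 were the same genes. The median peak-to-trough of the 19 was 0.422 log2 units in BLKO and 2.68 in Alb-Cre livers, beside 0.285 and 0.308 over all genes. Earlier results of these data were known when the lists were drawn up, so these counts are not independent evidence.

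Among the activators, Npas2 changed as Arntl did. Npas2, the CLOCK relative, lay between 7.85 and 19.5 CPM in BLKO livers (median 13.6) and between 0 and 7.88 CPM in Alb-Cre livers (median 0.77), where 8 libraries were at 0. Its peak-to-trough was 0.12 ± 0.24 log2 units in BLKO against 3.73 ± 0.24 in Alb-Cre livers, and the rhythm changed (adjusted p = 3.9e-12). Rora, the receptor RORα, was not called rhythmic in either group, with 0.73 ± 0.37 log2 units in BLKO and 0.47 ± 0.37 in Alb-Cre livers.

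The repressors divided by how much they kept. Cry1 (chromosome 10, 85131700 to 85185064) was among the most affected in its rhythm. It lay between 43.6 and 103 CPM in BLKO livers (median 74.5) and between 4.15 and 61.1 CPM in Alb-Cre livers (median 24.4). Its peak-to-trough was 0.35 ± 0.20 log2 units in BLKO and 2.67 ± 0.20 in Alb-Cre livers (adjusted p = 9.0e-13). Per3 had 0.09 ± 0.31 against 3.48 ± 0.31 (adjusted p = 9.2e-07), and Nfil3, a repressor that competes for D-boxes, 0.21 ± 0.20 against 1.90 ± 0.20 (adjusted p = 5.3e-06). Cry2 cycled by 0.19 ± 0.14 log2 units in BLKO and by 0.87 ± 0.14 in Alb-Cre livers (adjusted p = 0.0020). Ciart, which encodes the repressor CHRONO, had 0.48 ± 0.41 against 4.45 ± 0.41 (adjusted p = 7.4e-05). Its BLKO counts were low: 10 of 24 libraries were at 0, and the highest, 3.10 CPM, was library 4B. The Ciart contrast did not pass without the 3 libraries (adjusted p = 0.36).

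Nr1d1 and Nr1d2 were still rhythmic in BLKO livers. Nr1d1 (chromosome 11, 98767932 to 98775333, minus strand) lay between 0.711 and 20.6 CPM in BLKO livers (median 4.17) and between 1.53 and 152 CPM in Alb-Cre livers (median 16.7). Both groups were lowest at 20 to 22 h; by the mean of a time, BLKO livers were highest at 6 h and Alb-Cre livers at 8 h. The fitted peaks were close, 7.7 ± 0.4 h in BLKO and 7.5 ± 0.2 h in Alb-Cre livers, while the peak-to-trough was 2.87 ± 0.33 log2 units in BLKO and 5.75 ± 0.33 in Alb-Cre livers. The BLKO rhythm passed (adjusted p = 1.1e-06) and so did the change (adjusted p = 0.021; 0.0066 without the 3 libraries). Nr1d2 had 1.25 ± 0.36 log2 units in BLKO and 2.04 ± 0.36 in Alb-Cre livers, was rhythmic in both, and its rhythm was not called changed (adjusted p = 0.24; the difference in size lay between -1.80 and 0.23, 95% interval). With all libraries it was the only 1 of the 19 clock genes that met the rule for persisting rhythms given below; without the 3 libraries Per1 met it too.

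The period genes Per1 and Per2 kept part of their cycle. Per2 had 1.17 ± 0.31 log2 units in BLKO, where its rhythm passed narrowly (adjusted p = 0.041), and 2.71 ± 0.31 in Alb-Cre livers. Its BLKO peak, at 17.1 ± 1.0 h, was later than the Alb-Cre peak by 3.1 h (95% interval 0.9 to 5.3), and the rhythm changed (adjusted p = 0.010). The BLKO rhythm of Per2 without the 3 libraries missed the threshold (adjusted p = 0.077). Per1 had 1.43 ± 0.44 log2 units in BLKO and 3.29 ± 0.44 in Alb-Cre livers, and the change passed with all libraries (adjusted p = 0.0083). Its highest BLKO library was 22A, at 58.2 CPM, and the next highest was at 12 h. Leaving out the 3 libraries, the BLKO rhythm of Per1 passed (adjusted p = 0.0015) with 2.19 log2 units, and the change did not (adjusted p = 0.35). Bhlhe40, the repressor DEC1, had 0.60 ± 0.21 against 1.39 ± 0.21, and its change passed only without the 3 libraries (adjusted p = 0.084 with them and 0.022 without).

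The clock outputs had small rhythms in BLKO livers. Dbp (chromosome 7, 45705088 to 45710203), a D-box activator, lay between 8.42 and 39.4 CPM in BLKO livers (median 14.6) and between 6.03 and 498 CPM in Alb-Cre livers (median 47.7). Its highest BLKO library was 4B; among the means of each time, the highest was at 10 h in both groups, 35.8 CPM in BLKO and 445 CPM in Alb-Cre livers. The peak-to-trough was 1.12 ± 0.29 log2 units in BLKO and 5.94 ± 0.29 in Alb-Cre livers (change, adjusted p = 2.0e-11), and the remaining BLKO rhythm lay at the threshold (adjusted p = 0.048; 0.052 without the 3 libraries). Tef, a related activator, had 0.25 ± 0.12 against 2.25 ± 0.12 (adjusted p = 2.8e-12). Usp2, a deubiquitinase gene, had 1.15 ± 0.39 against 4.24 ± 0.39 (adjusted p = 2.3e-05). Wee1, a cell cycle kinase gene, had 0.26 ± 0.30 against 2.24 ± 0.30 (adjusted p = 0.00087). Hlf, the other D-box activator of the list, had 0.42 ± 0.20 against 1.09 ± 0.20, with an adjusted p of 0.10 for the change and 0.038 without the 3 libraries.

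**Figure D1:**
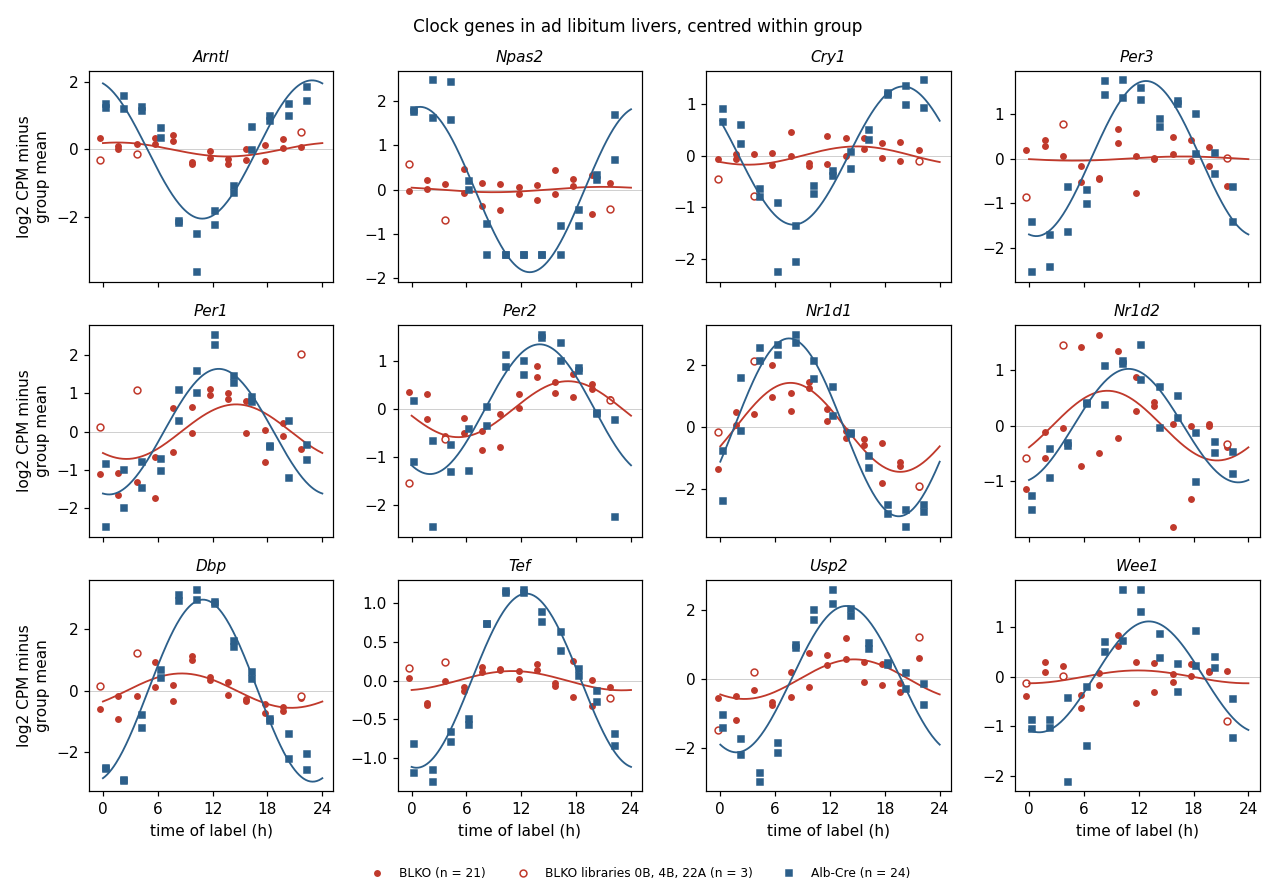
Log2 CPM minus the mean of the group (y axis) against the time of the label in hours (x axis) for 12 clock genes in BLKO (red circles) and Alb-Cre livers (blue squares), 24 libraries each, with the fitted 24 h cosine; open circles are the BLKO libraries 0B, 4B and 22A. The BLKO curves are nearly flat for Arntl, Npas2, Cry1, Per3 and Tef, while Nr1d1 keeps its timing with a peak-to-trough of 2.87 against 5.75 log2 units.

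Over all 9009 genes, 617 were rhythmic in BLKO and 1569 in Alb-Cre livers, and 223 in both, which is 36.1% of the BLKO rhythms and 14.2% of the Alb-Cre rhythms. Of the 451 changed rhythms, 342 were reduced in BLKO livers (rhythmic in Alb-Cre livers, with a lower peak-to-trough in BLKO) and 72 were raised (rhythmic in BLKO livers, with a higher one). In both classes size entered only as the fitted value, without a test of its own. Genes that changed mainly in timing can therefore be in either class. A rhythm was called persisting where both groups were rhythmic, no change was called, the peaks were within 3 h and the ratio of sizes was 0.5 to 2; 132 genes met this. These classes took 3.8%, 0.799% and 1.47% of all genes tested. Of the 1569 Alb-Cre rhythms, 21.8% were reduced, 8.41% persisting and 69.8% neither. The median standard error of a difference in peak-to-trough was 0.219 log2 units, beside a median Alb-Cre peak-to-trough of 0.64. Among the 317 Alb-Cre rhythms of at least 1 log2 unit, 306 were smaller in BLKO livers, 143 were reduced and 30 persisting. These 317 were chosen for a large fitted size in Alb-Cre livers, which by itself favours a smaller BLKO value. Over all 9009 genes, 4869 had the smaller size in BLKO livers. Without the 3 libraries, 497 genes were rhythmic in BLKO livers (5.5% of 9031), 350 changed (3.88%), 287 were reduced, 39 raised and 150 persisting; 231 of the reduced, 22 of the raised and 90 of the persisting genes were in the same class as before. Single times mattered too: the BLKO count was 359 when 8 h was left out, 359 for 12 h, 371 for 16 h and 373 for 18 h, and 287 genes changed when 12 h was left out. The raised genes numbered 43 without library 0B, and 47, 38, 40, 35, 45 and 41 with the times 0, 4, 8, 12, 16 or 18 h left out. On leaving out 8, 10, 12, 14, 16 or 18 h the persisting genes numbered 72, 87, 70, 72, 69 and 72.

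**Figure D2:**
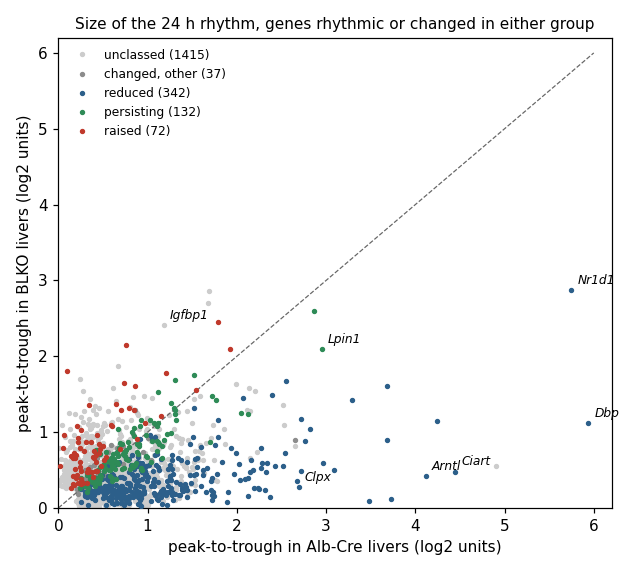
Fitted peak-to-trough in BLKO livers (y axis, log2 units) against that in Alb-Cre livers (x axis, log2 units) for genes that were rhythmic in either group or changed, coloured by class with the number of genes, with the line of equal size dashed. The largest Alb-Cre rhythms, such as Dbp at 5.94 log2 units, lie far under the line. Lpin1, with 2.10 log2 units in BLKO and 2.95 in Alb-Cre livers, lies under it too, but closer.

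How much of each Alb-Cre rhythm was left was measured as the part of the BLKO rhythm that points in the direction of the Alb-Cre peak, in percent of the Alb-Cre amplitude. Over the 1569 Alb-Cre rhythms this in-phase share had a median of 20.7% (quartiles -2.83% and 47.1%), and 25.2% without the 3 libraries. It was above 0 in 72.7% of them. Over all 9009 genes tested the median share was 21.1%, with 61.8% above 0, so the median of the Alb-Cre rhythms lies near that of all genes. In the 342 reduced genes the median was -8.51%, and in the 132 persisting genes 85.8%, as their definitions imply. A negative share means that the BLKO rhythm leaned away from the Alb-Cre peak.

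Outside the clock, the 12 reduced genes with the lowest p kept between -17.8% and 8.52% of their Alb-Cre amplitude, and all 12 were reduced without the 3 libraries too. The class rule and the ranking by contrast p favour such low shares. The analysis without the 3 reuses all other libraries, so it is not independent. Clpx (chromosome 9, 65294260 to 65330658), the chaperone subunit of the mitochondrial ClpXP protease, lay between 199.8 and 447 CPM in BLKO livers (median 325) and between 41.8 and 328 CPM in Alb-Cre livers (median 163). The Alb-Cre livers were lowest at 12 h and highest at 22 h; the BLKO livers had their lowest library, 0B, at 0 h, and held 356 and 351 CPM at 12 h. Its peak-to-trough was 0.27 ± 0.15 log2 units in BLKO and 2.69 ± 0.15 in Alb-Cre livers (adjusted p = 3.2e-13). Gys2 (chromosome 6, 142422613 to 142473109), the liver glycogen synthase, had 0.14 ± 0.11 log2 units in BLKO against 1.44 ± 0.11 in Alb-Cre livers, and peaked at 13.5 h in Alb-Cre livers (adjusted p = 1.2e-08). Avpr1a, a vasopressin receptor gene, had 0.37 ± 0.22 against 2.03 ± 0.22 (adjusted p = 3.5e-08). The glutamine transporter gene Slc38a3 had 0.21 ± 0.10 against 1.23 ± 0.10 (adjusted p = 2.8e-10).

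Ubxn1, an adaptor of the ATPase p97, was rhythmic in both groups. It cycled by 0.29 ± 0.05 log2 units in BLKO and by 0.92 ± 0.05 in Alb-Cre livers, and its BLKO rhythm passed (adjusted p = 0.018). The BLKO peak was at 9.5 h and the Alb-Cre peak at 3.9 h. Others of the 12 were Mad2l2, an adaptor in DNA repair, Pcsk4, a proprotein convertase gene, Smagp, a cell adhesion gene, Lgalsl, a galectin-like gene, Asap2, which encodes a regulator of ARF GTPases, and Crot, described below. Over the 342 reduced genes, 302 (88.3%) were not called rhythmic in BLKO livers.

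Reduced rhythms were spread unevenly over the day. Of the Alb-Cre rhythms that peaked at 0 to 4 h and at 20 to 24 h, 33.7% and 33.8% were reduced, and of those at 12 to 16 h 26.4%. Of those that peaked at 4 to 8 h, 8.42% were reduced (23 of 273), and of those at 8 to 12 h 16.5%. With the 3 libraries left out these shares were 24.6%, 24.5%, 19.6%, 8.84% and 8.97%, so 4 to 8 h and 8 to 12 h were then level. The median in-phase share was lowest for Alb-Cre peaks at 20 to 24 h, 3.47%, and highest for those at 4 to 8 h, 35.2%; without the 3 libraries it was 15.4% and 31.1%. Persisting genes made up 5.56% to 10.6% of the rhythms of a 4 h window. The clock genes peaking at 20 to 1 h in Alb-Cre livers were Arntl, Npas2, Nfil3 and Cry1, and the window of 4 to 8 h held Nr1d1.

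**Figure D3:**
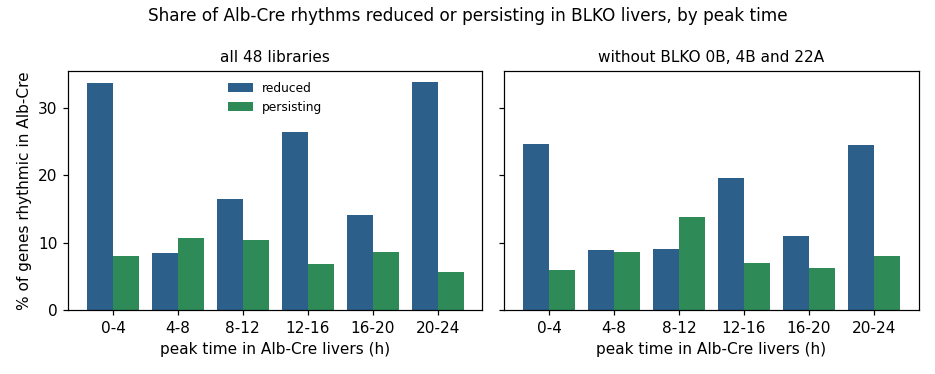
Percent of the genes rhythmic in Alb-Cre livers (y axis) that were reduced (blue) or persisting (green) in BLKO livers, by the 4 h window of the Alb-Cre peak (x axis, hours), with all 48 libraries (left) and without the BLKO libraries 0B, 4B and 22A (right). The 4 to 8 h window has 8.42% reduced on the left and 8.84% on the right, and the 8 to 12 h window 16.5% on the left and 8.97% on the right.

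The 12 persisting genes ranked first by the larger of their BLKO and Alb-Cre rhythm p had peaks at most 2.47 h apart between the groups. They kept 62.9% to 114% in phase, and the rule for persisting rhythms limits both values. All 12 were persisting without the 3 libraries too, in an analysis that reuses all other libraries. Fbxo21 (chromosome 5, 117976730 to 118010201), a ubiquitin ligase subunit gene, lay between 16.7 and 78.2 CPM in BLKO livers (median 36.3) and between 26.7 and 117 CPM in Alb-Cre livers (median 56.2). In both groups the libraries of 16 to 18 h were lowest and those of 6 to 8 h highest. Its peak-to-trough was 1.32 ± 0.20 log2 units in BLKO and 1.30 ± 0.20 in Alb-Cre livers, with peaks at 5.8 ± 0.6 h and 6.5 ± 0.6 h, and the 95% interval of the difference in size was -0.55 to 0.59. Aqp9, the glycerol channel through which the liver takes up glycerol, lay between 183 and 337 CPM in BLKO livers (median 244) and between 199.7 and 315 CPM in Alb-Cre livers (median 255). It cycled by 0.54 ± 0.07 log2 units in BLKO and by 0.51 ± 0.07 in Alb-Cre livers, peaking at 8.5 h in BLKO and 8.9 h in Alb-Cre livers.

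Gabarapl1, an autophagosome gene of the Atg8 family, had 0.67 ± 0.12 log2 units in BLKO and 0.99 ± 0.12 in Alb-Cre livers. Pfkfb1, a bifunctional enzyme gene that sets the balance of glycolysis and glucose production, had 0.88 ± 0.18 against 1.11 ± 0.18, with peaks at 16.9 h in BLKO and 17.8 h in Alb-Cre livers. The sorting receptor gene Sort1 had 0.95 ± 0.16 against 0.85 ± 0.16. Col4a1, a basement membrane collagen gene not typical of hepatocytes, had 1.15 ± 0.23 against 1.03 ± 0.23; in whole liver, RNA of cells that keep Bmal1 and of hepatocytes cannot be told apart. Others of the 12 were Gm13889, P2rx4, Casp6, 2810408I11Rik and Serp1. For none of the 12 was a change called, which does not show that their rhythms are equal, and the intervals of the differences in size reached up to 0.96 log2 units in Gm13889.

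The same genotypes were also studied with food in the light phase only, and these libraries shared the fit that gave the classes. With only the 48 ad libitum libraries in the fit there were 418 BLKO rhythms, 353 changed, 281 reduced and 97 persisting genes, 88 of them among the 132. Of the 132 persisting genes, 44 cycled in daytime-fed BLKO livers (33.3%, against 7.56% of all genes) and 69 in daytime-fed Alb-Cre livers (52.3%, against 19.5%). In BLKO livers 30 of these 44 peaked over 9 h from their ad libitum peak and 2 within 3 h; in Alb-Cre livers 49 of 69 did so and 0 within 3 h. The median shift was 10.2 h in BLKO and 10.1 h in Alb-Cre livers. Among the 342 reduced genes, daytime-fed BLKO livers had rhythms in 48 and daytime-fed Alb-Cre livers in 218 (63.7%). These daytime-fed counts are descriptions, and the difference between classes was not tested.

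**Figure D4:**
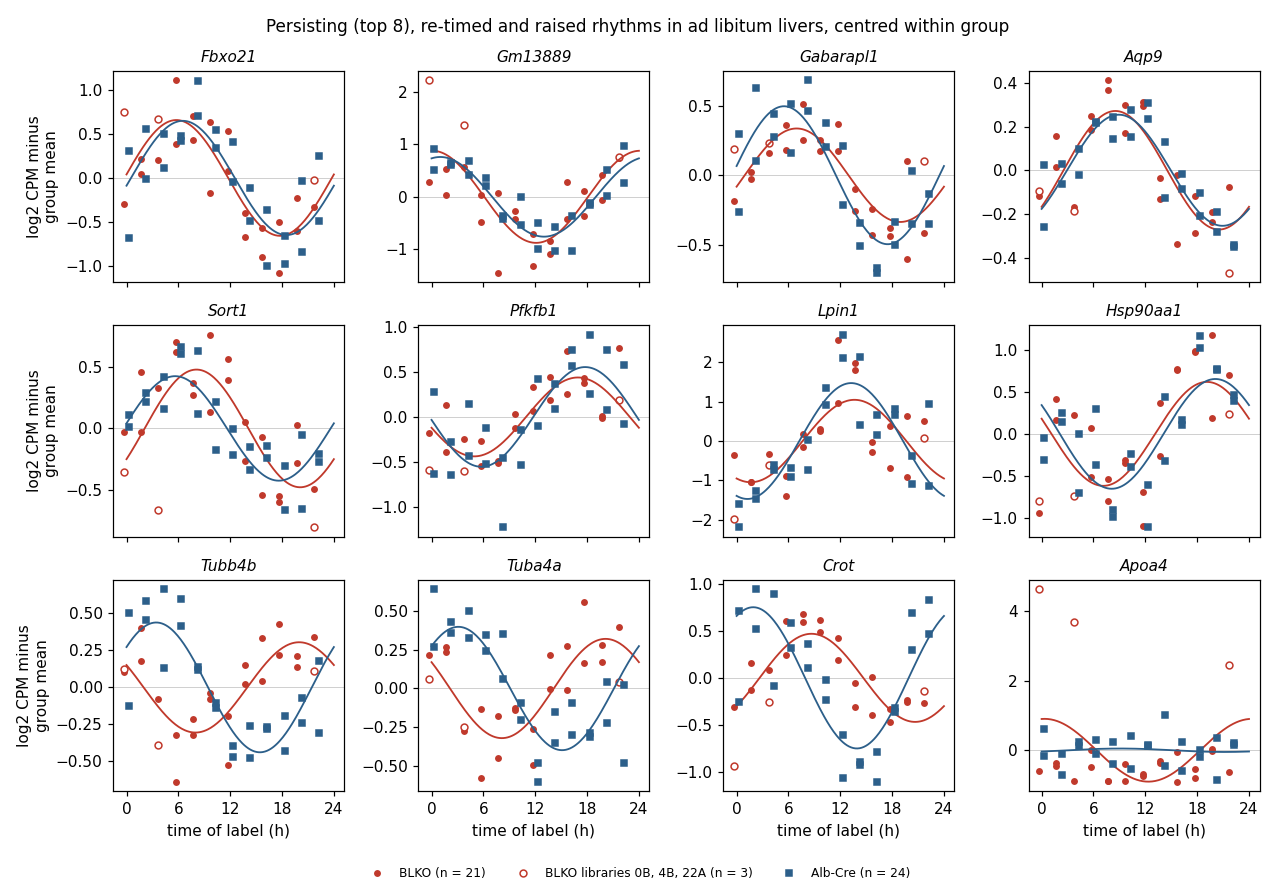
Log2 CPM minus the mean of the group (y axis) against the time of the label in hours (x axis) for 8 persisting genes (upper rows) and for Tubb4b, Tuba4a, Crot and Apoa4 (bottom row) in BLKO (red circles) and Alb-Cre livers (blue squares), with the fitted 24 h cosine and the BLKO libraries 0B, 4B and 22A as open circles. In each gene of the upper rows the fitted peaks of the groups lie within 3 h of each other. Sizes can differ, as in Lpin1, with 2.10 log2 units in BLKO and 2.95 in Alb-Cre livers. The curves of the tubulins and Crot are shifted, and the open circles of Apoa4 lie far above the other BLKO libraries.

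Some genes cycled in both groups with different timing. Of the 223 genes rhythmic in both, 138 peaked within 3 h of each other and 24 over 6 h apart, and all 24 were called changed, 20 of them without the 3 libraries as well. A change is nearly implied where 2 called rhythms peak so far apart, so the count of changes is no separate result. Tubb4b (chromosome 2, 25222160 to 25224702), which encodes a β-tubulin, lay between 109 and 229 CPM in BLKO livers (median 178) and between 145 and 320 CPM in Alb-Cre livers (median 186). BLKO livers were lowest at 6 h and highest at 18 h, whereas Alb-Cre livers were lowest at 12 h and highest at 2 h by the mean of a time. The fitted peaks were 20.0 ± 0.7 h in BLKO and 3.4 ± 0.5 h in Alb-Cre livers, a difference of -7.5 h (95% interval -9.2 to -5.7), with sizes of 0.61 ± 0.11 log2 units in BLKO and 0.88 ± 0.11 in Alb-Cre livers (change, adjusted p = 7.3e-07). Tuba4a, an α-tubulin gene, peaked at 20.1 ± 0.7 h in BLKO and 3.1 ± 0.5 h in Alb-Cre livers (adjusted p = 5.1e-06), with sizes of 0.64 log2 units in BLKO and 0.79 in Alb-Cre livers.

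The tubulin list changed in 5 of 10 tested genes, against 5.01% of all genes, and in the same 5 without the 3 libraries, against 3.88%. Tubb4b and Tuba4a fell in the reduced class, but the 95% intervals of their differences in size were -0.59 to 0.05 and -0.48 to 0.17. Tubb2a and Tubb5 were reduced as well. Tuba1c was raised, with 1.02 log2 units in BLKO livers, peaking at 18.9 h, against 0.25 in Alb-Cre livers (adjusted p = 0.033). Crot (chromosome 5, 8966033 to 8997324), a peroxisomal carnitine acyltransferase gene, peaked at 8.7 ± 0.8 h in BLKO and 1.9 ± 0.5 h in Alb-Cre livers, later by 6.7 h (95% interval 4.9 to 8.6). Its size was 0.94 ± 0.19 log2 units in BLKO livers, a difference of -0.57 from Alb-Cre livers (95% interval -1.10 to -0.03; change, adjusted p = 2.9e-09). Tab2, a signalling adaptor gene, peaked at 7.3 h in BLKO and 23.7 h in Alb-Cre livers (adjusted p = 4.2e-05). Por, the reductase partner of cytochromes P450, peaked at 1.5 h in BLKO and 14.2 h in Alb-Cre livers; the 3 libraries held 563, 808 and 573 CPM against 104 to 227 CPM in the other 21, and without them its BLKO rhythm did not pass (adjusted p = 0.10) while the change did (adjusted p = 1.9e-06).

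Most raised genes were not raised without the 3 libraries. Of the 72 raised genes, 59 were not called rhythmic in Alb-Cre livers, and 34.7% peaked at 0 to 4 h; without the 3 libraries 39 genes were raised, 22 of them among the 72, and 2.56% peaked at 0 to 4 h. Of the 6 named raised genes, 1 stayed raised without them, Mmd, a gene of a membrane protein first described in macrophages. Mmd peaked at 11.5 h in BLKO livers, with 0.66 ± 0.16 log2 units, and at 23.0 h in Alb-Cre livers, with 0.40 ± 0.16. Its change passed (adjusted p = 0.00069; 0.0031 without the 3), while its Alb-Cre rhythm missed the threshold with all libraries (adjusted p = 0.073). The difference in peak time was -11.5 h (interval -15.0 to -8.0). The interval of the difference in size, -0.19 to 0.70, held both signs, so a larger rhythm of Mmd in BLKO livers was not shown. The other members were Slc16a5, Gpt, Trib3, Cyp17a1 and Apoa4. Apoa4 cycled by 1.81 ± 0.58 log2 units in BLKO and 0.10 ± 0.58 in Alb-Cre livers (adjusted p = 0.00038), and without the 3 libraries its adjusted p was 0.86. For Gpt, an alanine transaminase gene, the peak-to-trough was higher in BLKO with all libraries (0.61 against 0.42) and lower without the 3, while the change passed both times (adjusted p = 8.4e-05 and 0.013).

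The synthetase gene Cars, for cysteine tRNA, was raised in both analyses. It lay between 16.1 and 46.4 CPM in BLKO livers (median 32.2) and between 27.5 and 56.1 CPM in Alb-Cre livers (median 37.6). Its size was 0.77 log2 units in BLKO and 0.69 in Alb-Cre livers, and its peak was at 10.1 h in BLKO and 5.3 h in Alb-Cre livers, 4.7 h apart (95% interval 3.2 to 6.3; change, adjusted p = 0.00073). Of 16 tested aminoacyl-tRNA synthetase genes, 2 changed, against 5.01% of all genes; the other was Tars, reduced to 0.19 in BLKO against 0.87 log2 units in Alb-Cre livers (adjusted p = 0.0017).

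Among genes of fatty acid and triglyceride synthesis, the count of changes depended on the 3 libraries. Of 19 tested, 3 were rhythmic in BLKO and 9 in Alb-Cre livers, 2 changed, and 3 were persisting: Lpin1, Agpat2 and Thrsp. Over all genes these shares were 6.85%, 17.4%, 5.01% and 1.47%. Lpin1, a phosphatidate phosphatase gene (chromosome 12, 16535669 to 16610966), lay between 15.0 and 364 CPM in BLKO livers (median 56.7) and between 15.8 and 485 CPM in Alb-Cre livers (median 65.8). The mean of a time was highest at 12 h in both groups. Its peak-to-trough was 2.10 log2 units at 13.6 h in BLKO and 2.95 at 13.3 h in Alb-Cre livers (difference -2.14 to 0.43, 95% interval). Elovl3, a fatty acid elongase gene, and Srebf1, the regulator of lipid synthesis, were reduced. Elovl3 had 1.61 log2 units in BLKO against 3.68 in Alb-Cre livers with all libraries, and 0.23 in BLKO livers without the 3, of which 0B and 4B held 52.4 and 54.2 CPM against 927 to 2400 CPM in the other 21. Srebf1 had 0.61 log2 units in BLKO against 1.44 in Alb-Cre livers. When the 3 libraries were left out 8 of the 19 changed, against 3.88% of all genes: besides Elovl3 and Srebf1 these were Acly, Acaca, Fasn, Elovl6, Dgat2 and Thrsp, the last no longer persisting. Fasn, the fatty acid synthase, peaked at 17.1 h in BLKO and 12.6 h in Alb-Cre livers, with 1.47 log2 units in BLKO and 1.59 in Alb-Cre livers (change, adjusted p = 0.15 with all libraries and 0.033 without the 3).

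Among 23 cholesterol synthesis and uptake genes, 0 were called rhythmic in BLKO and 1, Hmgcs1, in Alb-Cre livers, against 6.85% and 17.4% of all genes, and 0 changed, against 5.01%, with or without the 3 libraries. The median peak-to-trough was 0.891 log2 units in BLKO against 0.338 in Alb-Cre livers with all libraries, and 0.319 against 0.338 without the 3. In the list of growth hormone and sex-biased genes it was 1.14 against 0.69 with all libraries and 0.377 against 0.69 without the 3; of 15 tested, 2 changed, against 5.01% of all genes, Elovl3 and Stat5b, and 1 without the 3, Elovl3. Among 16 glucocorticoid-responsive genes, 5 were reduced, Cdkn1a, Mt1, Mt2, Sds and Fkbp5, against 3.8% of all genes, and 2 without the 3, Cdkn1a and Mt1, while Fkbp5 then met the rule for persisting rhythms. Cdkn1a, the cell cycle inhibitor p21, had 0.90 log2 units in BLKO (1.39 without the 3) against 3.68 in Alb-Cre livers (adjusted p = 0.00020). The metallothionein gene Mt1 stood at 609, 1540 and 453 CPM in the 3 libraries, against 7.25 to 243 CPM in the other 21.

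Of 14 glucose and glycogen genes, 3 were reduced, Gys2, Ppp1r3c and Slc37a4, against 3.8% of all genes, and the same 3 changed without the 3 libraries. Ppp1r3c, a glycogen-targeting subunit of a phosphatase, had 0.59 log2 units in BLKO (0.32 without the 3) and 2.34 in Alb-Cre livers (adjusted p = 7.5e-06). Slc37a4, the glucose 6-phosphate transporter of the endoplasmic reticulum, was still rhythmic in BLKO livers (adjusted p = 0.010), with 0.63 at 17.2 h against 1.27 log2 units at 14.2 h. In the urea cycle and amino acid list 6 of 19 changed, against 5.01% of all genes, 4 of them reduced, against 3.8%: Cps1, Asl, Sds and Prodh; without the 3 libraries 5 changed, among them Cps1, Asl, Gls2 and Gpt. In Asl, the argininosuccinate lyase, the size was 0.97 log2 units in BLKO and 1.03 in Alb-Cre livers, and the peaks were 23.0 h in BLKO and 16.8 h in Alb-Cre livers (adjusted p = 8.2e-05). The 3 libraries held 1720, 1650 and 1710 CPM of Asl against 335 to 644 CPM in the other 21, and without them its BLKO size was 0.44 log2 units and its BLKO peak 19.6 h (adjusted p = 0.0074). Of 20 xenobiotic metabolism genes, 4 changed, against 5.01% of all genes, and 3 without the 3 libraries, when Gsta1 did not pass (adjusted p = 0.64). Cyp2a5, a cytochrome P450 gene, had 0.08 log2 units in BLKO (0.35 without the 3) against 1.89 in Alb-Cre livers (adjusted p = 0.0031; 0.041 without the 3). In the fatty acid oxidation list, 4 of 23 changed, against the same 5.01% (3 others without the 3 libraries, Cpt1a and Slc25a20 among them), and the raised members Cyp4a10 and Cyp4a14 were not called rhythmic in either group without the 3 libraries.

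Of 18 heat shock genes, 4 were rhythmic in BLKO and 5 in Alb-Cre livers, against 6.85% and 17.4% of all genes. None of the 18 changed, with or without the 3 libraries, which lies near the 5.01% of all genes that did. Hsp90aa1, a cytosolic chaperone gene, lay between 6.59 and 33.8 CPM in BLKO livers (median 16.0) and between 7.23 and 36.9 CPM in Alb-Cre livers (median 16.8). Its size was 1.23 in BLKO and 1.30 log2 units in Alb-Cre livers, and its peaks were at 19.1 h in BLKO and 20.1 h in Alb-Cre livers (change, adjusted p = 0.98; difference in size -0.86 to 0.72, 95% interval). The 5 members rhythmic in Alb-Cre livers kept a median of 70.9% in phase, and 80.0% without the 3 libraries. They were split: Hspd1 kept 5.31% and Hspe1 25.6%, while Hspa4l kept 70.9%, Hspb1 91.4% and Hsp90aa1 91.6%. With all libraries only Hsp90aa1 of the 5 was persisting. Cirbp, a cold-inducible RNA-binding protein gene, peaked at 6.4 h in both groups with 1.11 log2 units in BLKO and 1.01 in Alb-Cre livers; its Alb-Cre rhythm missed the threshold with all libraries (adjusted p = 0.065) and passed without the 3 (adjusted p = 0.032).

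Of 20 genes of the unfolded protein response, 5 were rhythmic in BLKO and 3 in Alb-Cre livers, against 6.85% and 17.4% of all genes, and 8 in BLKO livers without the 3 libraries, against 5.5%. Hyou1, an endoplasmic reticulum chaperone gene, had 1.08 log2 units in BLKO, peaking at 19.6 h, against 0.60 in Alb-Cre livers (change, adjusted p = 0.047, and 0.051 without the 3 libraries, when Atf4 was the 1 member that changed). Odc1, the ornithine decarboxylase of polyamine synthesis, was persisting with 0.81 against 0.90 log2 units. Sirt3 and Srm of the same list of 12 were persisting as well, against 1.47% of all genes. Nnmt of that list was reduced with all libraries and persisting without the 3. In autophagy genes 0 of 20 changed, against 5.01% of all genes, and Ulk1 and Gabarapl1 were persisting, against 1.47%. Without the 3 libraries 2 changed, Atg9a and Sqstm1, against 3.88% of all genes, and Ulk1 was no longer persisting. Immediate early genes changed in 0 of 12, mitochondrial proteases and chaperones in 1 of 14 (Clpx), ribosomal protein genes in 1 of 21 (Rpl3), ribosome biogenesis genes in 1 of 19 (Rrp9), proteasome genes in 3 of 24, acute phase genes in 1 of 16 (Fgg), bile acid genes in 2 of 13 (Abcb11 and Baat), insulin-related genes in 1 of 13 (Trib1), cell cycle genes in 3 of 7 and interferon genes in 1 of 10 (Usp18), against 5.01% of all genes. The changes of Rpl3, Abcb11, Baat and Trib1, of Psma1 and Psmb3 in the proteasome list and of Ccnd1 in the cell cycle list did not pass without the 3 libraries, when the proteasome and cell cycle lists had 2 changes each.

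**Figure D5:**
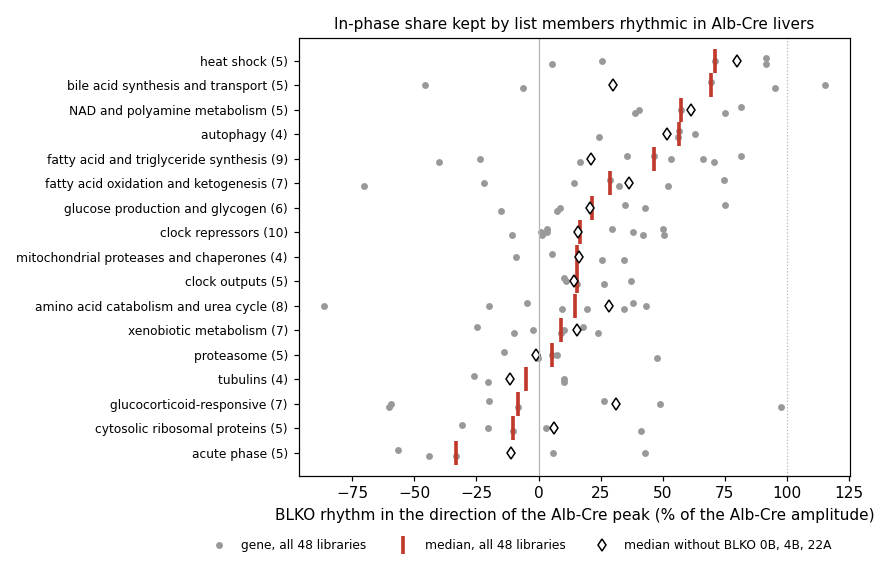
In-phase share of the Alb-Cre amplitude kept in BLKO livers (x axis, percent) for the members of each list that were rhythmic in Alb-Cre livers, for lists with at least 4 such members (number in brackets); dots are genes, red bars their median with all 48 libraries, and open diamonds the median without the BLKO libraries 0B, 4B and 22A. Heat shock genes have the highest median, 70.9%, and the glucocorticoid-responsive list has a median of -8.4% with all libraries and 31.1% without the 3.

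Promoters of reduced and persisting genes were compared for the same elements, as a description. The E-box was found in 15.1% of the 272 reduced genes with a RefSeq promoter, 14.7% of the 109 persisting genes and 12.5% of the 7260 tested genes. The D-box was found in 2.21% of the reduced genes, 0 of the persisting genes and 0.73% of the tested genes. The RORE was found in 1.10%, 0 and 0.22% of the same groups. The heat shock element GAANNTTC was found in 6.62% of the reduced, 9.17% of the persisting and 7.16% of the tested genes. Windows of 300 bases hold few D-boxes and ROREs, and these shares say nothing of binding.

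Of the markers of other cell types, 0 of 11 macrophage, 0 of 9 endothelial, 0 of 7 stellate and fibroblast and 0 of 3 cholangiocyte genes changed, with or without the 3 libraries. In lists this short that lies near the share of all genes that changed, 5.01%, or 3.88% without the 3, so it says little of these cells. The B and T cell, erythroid, adipocyte and acinar lists had 1 measured gene each, none called changed, and no neutrophil marker passed the filter on low counts. Among the 12 hepatocyte markers 1 changed, Cps1. Their part in the results was not tested.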

How the data were processed

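Liver RNA in 24 BLKO and 24 Alb-Cre libraries of mice fed ad libitum was read from deposited tables of whole-number counts per gene, made by the authors with bcl2fastq, cutadapt, STAR and HTSeq on mm10, per the submitters' processing notes; strand handling is not given in the sources used here, so overlapping genes and near-identical copies (tubulins, Cyp4a, Mt1 and Mt2) are uncertain. The 96 columns of normalized values were not used. Of 12035 BLKO and 11606 Alb-Cre symbols, the 10848 in both were joined, and 2.84% and 3.01% of counts lie in symbols of 1 table only.

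One edgeR 4.0.16 fit (R 4.3.3; TMM, robust quasi-likelihood) held the 96 liver libraries of both genotypes and both feeding regimens, each group with its own mean and 24 h cosine and sine terms, and 84 residual degrees of freedom; 9009 genes passed filterByExpr. The contrast tested cosine and sine jointly, BLKO minus Alb-Cre. Sizes, peak times and their standard errors came from least squares on log2 CPM (prior count 2) with 42 residual degrees of freedom, and intervals are at 95%. The test was also tried on counts simulated from the levels and spread of these libraries, with results not given here. Named genes were the 3 clock lists, the 12 reduced and 6 raised genes with the lowest contrast p, the 12 persisting genes with the lowest larger rhythm p, in each list up to 4 members by contrast p and 2 by BLKO rhythm p, and up to 5 genes with peaks over 6 h apart; others named here were picked after their values were seen. Members and gene lists were chosen with earlier results of these data known.

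Alternatives used DESeq2 1.42.0 and limma 3.58.1. Across the 24 pairs of libraries with the same hour and letter, deviations from the fitted groups correlated between -0.11 and 0.245, with 6 pairs over 0.1. Library totals, 1214842 to 5462461 counts, limit the precision of low genes such as Ciart. Values of a few members are not reported here.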

Additional observations from a re-analysis of the deposited data

How the results depend on the processing

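Under tools, scaling, filters and priors the counts stayed within 1.5 times those reported, and the median in-phase share within 17.8% to 25.2%, with the exceptions that follow. Raised rhythms numbered 39 without 0B, 4B and 22A, 43 without 0B, and 43 with only the 48 ad libitum libraries. With time as 12 levels there were 931 Alb-Cre rhythms, 155 changed, 136 reduced, 14 raised and 77 persisting. Asking for 1.5-fold rhythms left 323 BLKO and 897 Alb-Cre rhythms, 47 raised and 67 persisting. Leaving out 1 letter or 1 time gave 10 to 796 BLKO rhythms, 380 to 1750 Alb-Cre rhythms, 73 to 436 changed, 68 to 320 reduced, 0 to 91 raised and 1 to 143 persisting, the lowest without letter A or B (1 library per time left), and a median in-phase share of 8.48% to 22.5%. The replicate block of hour and letter, with ad libitum libraries only, gave 382 changed rhythms; 2 of 24 BLKO libraries correlated best with their own label, so these share only a number. The causes were not tested.

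For named genes called changed, alternatives were compared by the direction of the size difference and the call of a change. For the other named genes only the call of the BLKO rhythm was compared, so an unchanged result can mean still not called. Of 4180 alternative values for 161 named genes, 3677 were unchanged in this sense, 420 lost the call, 38 gained it and 45 reversed in peak-to-trough (BLKO minus Alb-Cre, log2 units). Without the 3 libraries these were -0.74 in Slc16a5, -0.071 in Gpt, -0.81 in Trib3, -0.021 in Baat, -1.41 in Cyp4a14, -0.64 in Gsta1 and 0.021 in Stat5b, and without 0B -0.059 in Slc16a5, -0.68 in Cyp4a14 and -0.029 in Gsta1. Leaving out a letter or time, it ranged from -0.31 to 0.024 in Tuba4a, -0.86 to 1.05 in Cyp4a14, -0.19 to 1.71 in Cyp4a10, -1.98 to 1.23 in Mt2, -1.74 to 0.58 in Mt1, -0.31 to 0.21 in Asl, -0.11 to 0.46 in Gls2, -0.12 to 0.086 in Stat5b, -0.24 to 0.013 in Psma1, -0.51 to 0.33 in Ccnd1, -0.098 to 0.46 in Gpt, -0.13 to 0.24 in Cars, -0.12 to 0.074 in Psmb3, -0.036 to 0.42 in Mmd, -0.011 to 1.32 in Trib3, -1.11 to 0.044 in Acot3 and -0.0062 to 0.15 in Baat.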
